A study of Homo sapiens with 4 samples.

Results

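The SERPINB genes of chromosome 18q21 are 10 neighbouring protein-coding genes that encode clade B serpins. They were taken as a list of symbols, SERPINB2, SERPINB3, SERPINB4, SERPINB5, SERPINB7, SERPINB8, SERPINB10, SERPINB11, SERPINB12 and SERPINB13, out of 20033 protein-coding genes of GENCODE 44. The cluster was chosen by measured values, because SERPINB2 is among the genes whose RNA differed between the same control and cadmium-resistant cells in the study's expression data, and the other members were taken for their position beside it. The expression data were not analysed here. In the order of the chromosome the genes run SERPINB5, SERPINB12, SERPINB13, SERPINB4, SERPINB11, SERPINB3, SERPINB7, SERPINB2, SERPINB10 and SERPINB8. With 10 kb added on either side, the cluster spans chr18:63466958-64029779 on hg38, or 562822 bp.

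MTF-1 was profiled by CUT&RUN, in which an antibody tethers a nuclease to a DNA-binding protein and the DNA cut free around it is sequenced. The cells were MDA-MB-231, an established human breast cancer line. They were either untreated controls (2 libraries) or cadmium-resistant cells (2 libraries). The resistant cells were passaged in cadmium sulfate from 5 µM and then held at 10 µM. The replicates of a condition were merged before peaks were called, so each condition has a single peak list with positions and no read counts, 69299 peaks in control and 60130 in cadmium-resistant cells. Depth per library and spread between replicates are therefore unknown here, and every comparison below is a description of both lists with no test. A peak that shared no base with the other list is called lost (control only) or gained (cadmium only), and overlapping peaks of both lists were joined into a conserved site. The caller works in bins of 200 bp, and a peak of 1 bin is written as 199 bp wide.

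Serpins are protease inhibitors that trap a target protease when it cleaves their exposed reactive loop, and clade B members lack a classical secretion signal and act largely inside cells. SERPINB2, plasminogen activator inhibitor type 2, inhibits urokinase and is a strongly inducible stress and inflammation gene. SERPINB5 is maspin, a member without classical inhibitory activity that is expressed in normal mammary epithelium and often silenced in breast cancer. MTF-1 is the zinc finger factor that binds metal response elements and switches on metallothionein genes when metals rise.

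MTF-1 peaks were few at the member genes beside coding genes as a whole. Across the whole cluster there were 17.8 sites per Mb, against 15 for chromosome 18 and 26.2 for all chromosomes. Within the gene bodies and 10 kb on either side there were 9 sites, of which 2 were lost, 2 gained and 5 conserved. Each list contributed 7 peaks, covering 5993 bp in control and 4993 bp in cadmium-resistant cells. SERPINB3, SERPINB4, SERPINB7, SERPINB12 and SERPINB13 had no peak of either list, 5 of 10 genes against 12.3% of all coding genes. The remaining 5 members split by class of site. SERPINB2 had 1 lost and 2 conserved sites, SERPINB5 had 1 lost and 1 conserved, SERPINB11 had 2 gained, and SERPINB8 and SERPINB10 each had 1 conserved site. A lost peak was thus found at 2 of 10 members, beside 38.0% of all coding genes, and a gained peak at 1 of 10, beside 24.4%. The lost SERPINB2 peak was 799 bp wide and the other changed peaks were 399 bp each, where the median width was 999 bp for all lost and 599 bp for all gained peaks. With so few genes these shares describe the cluster only.

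**Figure D1:**
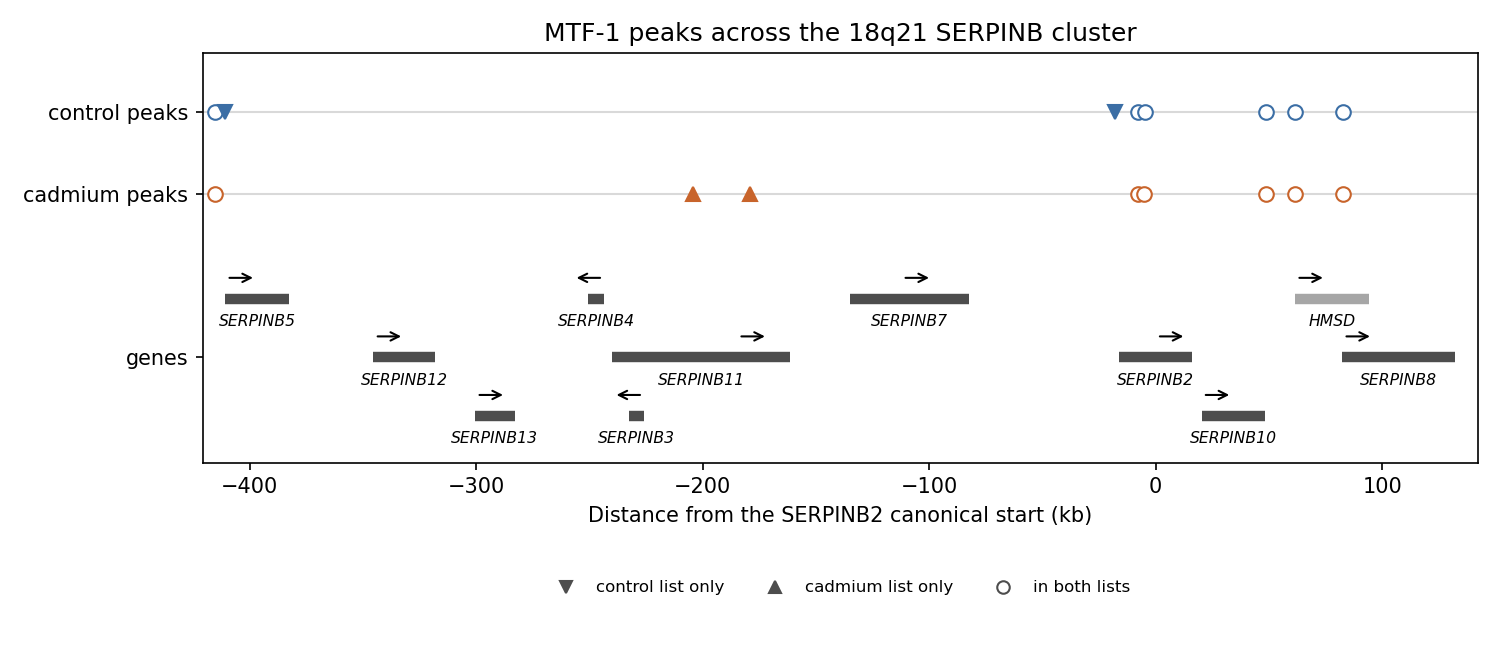
Map of the SERPINB cluster, with distance from the canonical SERPINB2 start in kb on the x axis. Each symbol is the centre of a peak in the control list (blue) or the cadmium list (orange), drawn larger than the peak itself; down triangles are the 2 lost peaks over members, up triangles the 2 gained peaks and open circles peaks present in both lists. Bars are genes, arrows mark the canonical start and its direction, and HMSD (grey) is a coding gene inside the cluster that is not a member; the 5 members without a peak lie between the SERPINB5 end of the cluster and SERPINB2.

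The sequences of the changed peaks, and of the conserved site closest to a SERPINB2 start, are given as 300 bp around the centre of each, on the plus strand of hg38, because they include every peak found in only 1 list over the members. The sites of SERPINB2 and SERPINB8 that differed by 200 bp in width are described without their sequence. Capitals mark a match to TGACTCA or its variant TGAGTCA (AP-1, the FOS/JUN dimer); no window held a match to the other strings searched, which were the forkhead strings (ATAAACA or its variant ATAAATA, and likewise GTAAACA or its variant GTAAATA), the core of the metal response element (TGCACNC or its variant TGCGCNC) and the JASPAR MTF-1 string TGCACACG, whose first letters also match the core, all on both strands. None of the windows overlapped an annotated UTR. The lost peak upstream of SERPINB2 is shown at chr18:63869650-63869949 and the conserved site in the first intron of its longer transcript at chr18:63882750-63883049. The lost peak at the SERPINB5 start is at chr18:63476650-63476949, and the gained peaks inside SERPINB11 are at chr18:63683250-63683549 and chr18:63708650-63708949.
SERPINB2 lost: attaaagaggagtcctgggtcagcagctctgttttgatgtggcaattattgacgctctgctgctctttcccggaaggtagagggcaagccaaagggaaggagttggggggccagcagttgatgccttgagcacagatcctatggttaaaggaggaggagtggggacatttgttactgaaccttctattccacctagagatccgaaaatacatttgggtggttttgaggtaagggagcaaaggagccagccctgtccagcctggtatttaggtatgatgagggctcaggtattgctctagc
SERPINB2 conserved: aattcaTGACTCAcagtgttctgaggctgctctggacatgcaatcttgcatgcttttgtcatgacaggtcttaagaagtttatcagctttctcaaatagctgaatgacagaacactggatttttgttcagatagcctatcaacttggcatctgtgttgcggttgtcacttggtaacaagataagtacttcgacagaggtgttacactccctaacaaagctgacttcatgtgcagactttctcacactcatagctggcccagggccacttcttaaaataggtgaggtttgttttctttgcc
SERPINB5 lost: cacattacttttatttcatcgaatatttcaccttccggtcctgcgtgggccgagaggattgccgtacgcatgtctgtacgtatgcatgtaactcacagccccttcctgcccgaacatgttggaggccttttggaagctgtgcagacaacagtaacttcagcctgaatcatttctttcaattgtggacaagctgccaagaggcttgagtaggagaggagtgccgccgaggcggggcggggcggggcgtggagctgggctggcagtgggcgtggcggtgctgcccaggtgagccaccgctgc
SERPINB11 gained, first: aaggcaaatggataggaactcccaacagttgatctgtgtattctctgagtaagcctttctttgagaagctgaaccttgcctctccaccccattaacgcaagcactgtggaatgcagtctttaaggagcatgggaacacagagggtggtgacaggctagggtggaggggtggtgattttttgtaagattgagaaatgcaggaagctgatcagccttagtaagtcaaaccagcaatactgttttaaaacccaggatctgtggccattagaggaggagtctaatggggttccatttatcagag
SERPINB11 gained, second: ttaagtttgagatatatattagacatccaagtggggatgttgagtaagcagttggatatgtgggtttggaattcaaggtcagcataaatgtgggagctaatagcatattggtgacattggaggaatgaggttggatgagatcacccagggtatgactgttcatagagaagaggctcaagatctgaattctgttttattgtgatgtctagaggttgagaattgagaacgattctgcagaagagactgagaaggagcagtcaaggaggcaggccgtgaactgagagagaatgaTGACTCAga

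SERPINB2 (ENSG00000197632.9, plus strand, chr18:63871692-63903888) held more peaks and more covered bases than any other member in control cells, and it had the largest difference in covered bases between the lists. In control cells 3 peaks covered 2997 bp of its window, and in cadmium-resistant cells 2 peaks covered 1398 bp. The 799 bp peak at chr18:63869401-63870199 was present in control only. The peak at chr18:63879601-63879999 was 399 bp wide in control and 199 bp in cadmium, where it began at 63879801. The widest peak of the cluster, 1799 bp at chr18:63882001-63883799 in control, was 1199 bp in cadmium and ended at 63883199. No stretch of the SERPINB2 window was covered in cadmium and not in control. The cadmium list covered 46.6% as many bases as the control list, a difference of 1599 bp made up of 799 bp, 200 bp and 600 bp at the respective sites. Among the 17189 coding genes with any control coverage this percentage had a median of 76.0% (quartiles 54.8 and 100%), and 17.5% of them were at or below the value of SERPINB2. Lower coverage in cadmium was the more frequent direction across the genome, since 62.8% of all coding genes were covered over fewer bases by the cadmium list and 21.5% over more.

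**Figure D2:**
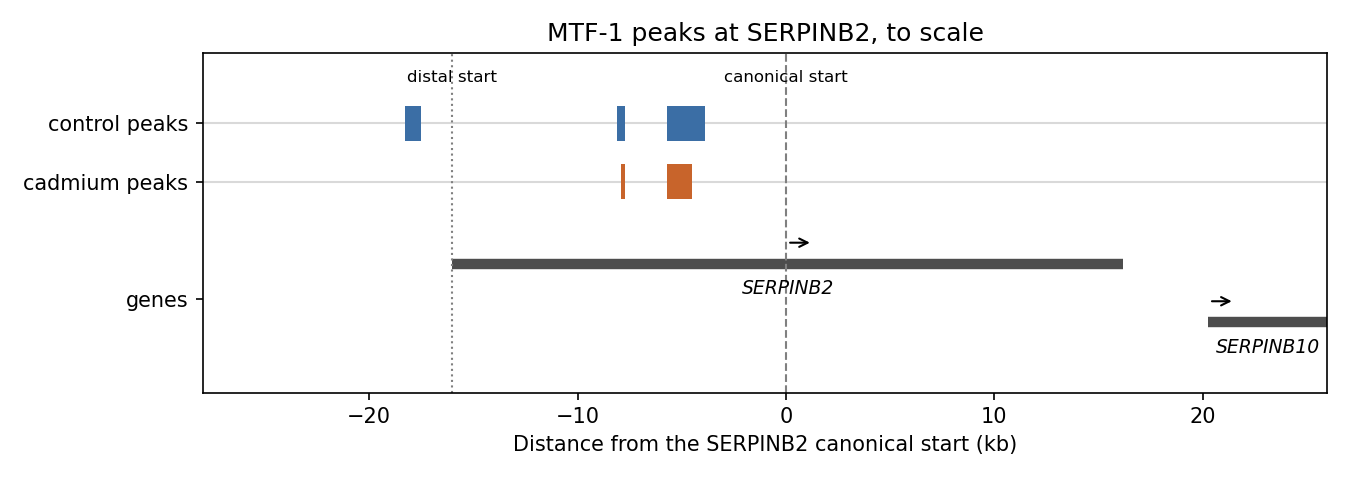
Peaks at SERPINB2 drawn to scale, with distance from its canonical start in kb on the x axis, control peaks in blue, cadmium peaks in orange, and the bodies of SERPINB2 and the start of SERPINB10 as grey bars. The control list has 3 peaks and the cadmium list 2, all upstream of the canonical start (dashed line), and the control-only peak lies just before the distal start (dotted line).

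None of these peaks lay at the start that SERPINB2 is usually given. The annotation has 5 start positions for SERPINB2, and 1 transcript begins at 63871692, which is 16013 bp upstream of the canonical start at 63887705. The lost peak lay outside the gene body, its nearer edge 1493 bp before this distal start and its centre 17905 bp before the canonical start. Both conserved sites lay between the starts, in sequence that is intronic for the longer transcript. Their centres were 7905 bp and 4805 bp upstream of the canonical start, and the nearest covered base was 3906 bp from it in control and 4506 bp in cadmium. By the 1 kb rule used here, SERPINB2 had a start-site peak in neither list. With the RefSeq gene record, which begins at 63887705 (gene bounds compared after the data were seen), the lost peak falls outside the 10 kb window.

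SERPINB5 (ENSG00000206075.14, plus strand, chr18:63476958-63505085) was the member that differed at its start. A 399 bp control peak at chr18:63476601-63476999 covered the start of the gene, over its first exon and the upstream sequence, with its centre 158 bp before the start. The cadmium list had no peak there, and its closest peak to the start was 4159 bp away. That second site, chr18:63472201-63472799, was 599 bp wide in both lists and upstream of the gene. Coverage of the SERPINB5 window was 998 bp in control and 599 bp in cadmium. The 300 bp of the lost peak shown above had 17 CpG dinucleotides and a GC content of 57.3%, the highest of the sequences shown, against 3 CpG and 50% for the lost peak of SERPINB2. The RefSeq promoter of SERPINB5 was inside the control peak over 292 of its 300 bp. A start-site peak in control only, as at SERPINB5, was found at 641 of all 20033 coding genes, and in cadmium only at 300.

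SERPINB11 (ENSG00000206072.13, plus strand, chr18:63647579-63726432), a serpin that appears to have lost inhibitory function in humans, held both gained peaks and no control peak. Each was 399 bp wide, that is 2 bins, and neither was over an exon. The first, at chr18:63683201-63683599, was 19560 bp upstream of the canonical start at 63702960, inside an intron of a longer transcript. The second, at chr18:63708601-63708999, was 5840 bp downstream of the canonical start and its edge was 1195 bp from a further annotated start at 63710194. The nearest control peak to the canonical start of SERPINB11 was 166441 bp away. The first gained peak lies outside the 10 kb window when the RefSeq gene bounds are used.

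SERPINB8 and SERPINB10 had a site in both lists. SERPINB8 (ENSG00000166401.15, plus strand, chr18:63970029-64019779), an inhibitor of furin-like proteases, was the 1 member with a peak at a start in both conditions, 1199 bp wide in control and 1399 bp in cadmium, at chr18:63969801-63971199. The site also lies within HMSD, which overlaps the start of SERPINB8. This was the 1 conserved member site that was wider in cadmium. SERPINB10 (ENSG00000242550.7, plus strand, chr18:63907958-63936111), or bomapin, a member of blood cell precursors, had a 799 bp peak at chr18:63936201-63936999, identical in both lists. It began 90 bp past the end of the gene and 28243 bp from its start, and its GC content was 65.3%. Of the 5 conserved member sites, 2 were covered over more bases by control, 1 by cadmium and 2 equally. Over all 48627 conserved sites, 58.0% were covered over more bases in control and 23.7% over more in cadmium-resistant cells.

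**Figure D3:**
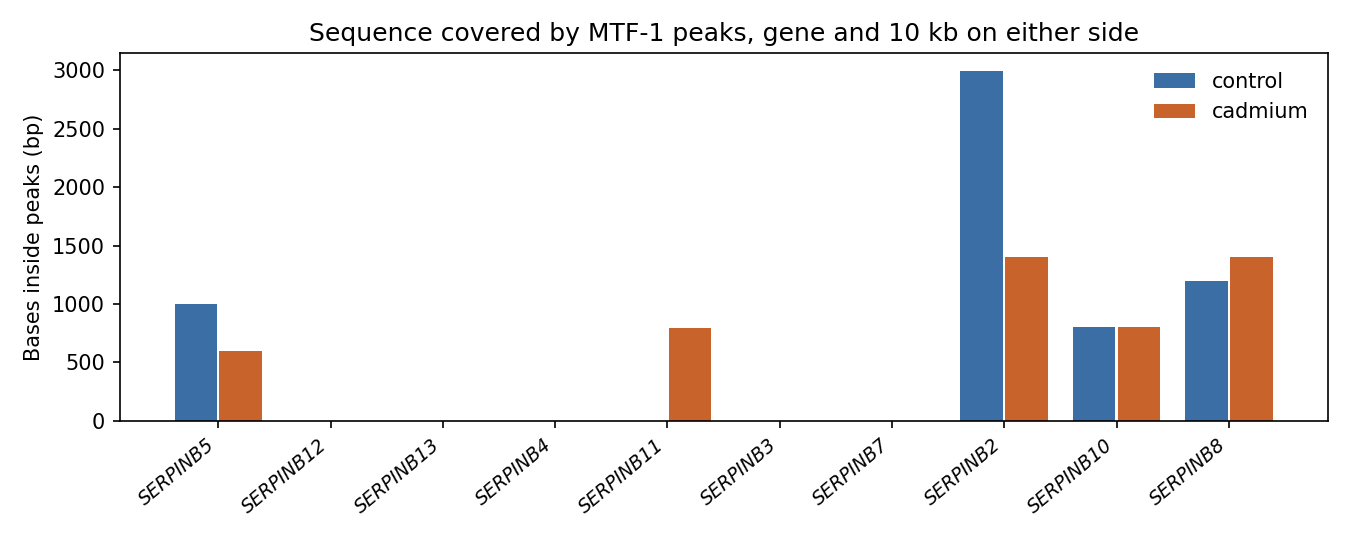
Bases inside MTF-1 peaks (y axis, bp) for each member gene with 10 kb on either side, in chromosome order, in the control list (blue) and the cadmium list (orange). Each bar is a single value from merged replicates, so there are no error bars; SERPINB2 has the tallest control bar at 2997 bp against 1398 bp in cadmium, and SERPINB11 has a cadmium bar of 798 bp only.

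The 5 members without a peak occupy the middle of the cluster. SERPINB3 and SERPINB4 encode the squamous cell carcinoma antigens, SERPINB13 (headpin) inhibits lysosomal cathepsins, SERPINB12 inhibits trypsin-like proteases and SERPINB7 (megsin) is expressed in skin and in the kidney mesangium. The nearest control peak was between 65370 bp (SERPINB12) and 184894 bp (SERPINB3) from the canonical start. In cadmium the corresponding distances ran from 21308 bp (SERPINB3) to 95858 bp (SERPINB13), and for SERPINB3, SERPINB4, SERPINB7 and SERPINB13 the nearest was a gained peak of SERPINB11. In control cells 1 stretch of 392 kb, from 63477000 to 63869400, had no peak and contained 6 whole members, the 5 above and SERPINB11. Of the control list, 1.2% of the 69105 distances between consecutive peaks were this long or longer, and the median was 11401 bp. On chromosome 18 alone, 34 of 1035 control distances were this long or longer. In cadmium-resistant cells the gained peaks split this interval, and it reached further on both sides, where the SERPINB5 start peak and the lost SERPINB2 peak were absent and the next SERPINB2 site began 200 bp later. This left peak-free stretches of 210 kb, with SERPINB5, SERPINB12, SERPINB13, SERPINB4 and SERPINB3, and of 171 kb, with SERPINB7. Of the 59948 distances in the cadmium list, 3.79% and 4.98% were at least as long as these, respectively. On chromosome 18 alone the counts were 61 and 82 of 946 cadmium distances.

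SERPINB3 and SERPINB4 are close copies, and reads from the few stretches that are identical between them may be hard to place. Their gene bodies aligned over 100% of SERPINB3 with an identity of 94.8%, and 227 of 6547 windows as long as a read were identical between them (3.47%). How reads matching both were treated is not given in the sources used here. No site of the cluster had another stretch of at least 100 bp with at least 90% identity elsewhere in the genome, so the sites that were called are in sequence without close copies.

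On the SERPINB8 side the cluster borders a much longer empty interval. After the SERPINB8 site the next peak was 3040 kb away in control and 3389 kb away in cadmium, distances matched or exceeded by 21 and 12 of all the distances in the respective lists, these included. The next coding genes on that side, CDH7 and CDH19, which encode cadherins, had no peak in either list. On the other side VPS4B, a membrane-scission ATPase, and KDSR, an enzyme of sphingolipid synthesis, both had a start-site peak in both lists. Inside the cluster, the non-member HMSD had a 799 bp peak over its start in both lists at chr18:63949001-63949799. It lay 12890 bp past SERPINB10, just beyond the 10 kb limit, while the member sites outside a gene body lay 90 bp, 1493 bp and 4159 bp from it.

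**Figure D4:**
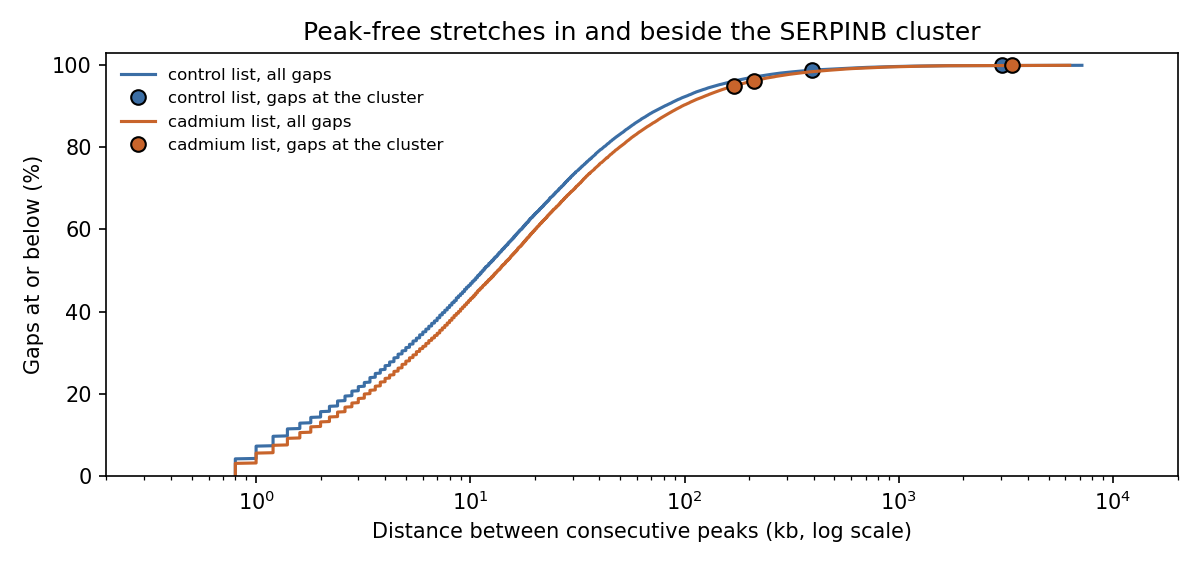
Cumulative share of distances between consecutive peaks (x axis, kb, log scale) at or below each length (y axis, %) for the control list (blue) and the cadmium list (orange); outlined points mark the peak-free stretches in and beside the SERPINB cluster. The stretches inside the cluster, 392 kb in control and 210 kb and 171 kb in cadmium, lie above 95% of all distances, and those beyond SERPINB8 are near the top of each curve.

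Start-site peaks were few in the cluster. A peak came within 1 kb of any annotated start for 2 of 10 members in control (SERPINB5 and SERPINB8) and for 1 of 10 in cadmium (SERPINB8). Over all coding genes the shares were 73.2% in control and 71.5% in cadmium. Coding genes of chromosome 18 outside the cluster had them about as often, at 72.3% and 72.7% of 256 genes. The median share of the window inside peaks was 0% in control and 0.404% in cadmium for the members, against 7.27% and 5.33% for all coding genes. The cadmium median of the members is the midpoint between 0% and the 0.807% of SERPINB11, a value that no member had. SERPINB2 had the largest share of its window covered among the members, 5.74% in control peaks and 2.68% in cadmium peaks. Both were below the medians of all coding genes. Against the other coding genes of chromosome 18, whose medians were 2.66% in control and 2.72% in cadmium, it was above the median in control and close to it in cadmium. Across the cluster there were 17.8 sites per Mb, HMSD included, close to the 15.0 per Mb of the whole chromosome and below the 26.2 per Mb of the genome. Of the bases of the cluster, peaks covered 1.21% in control and 1.03% in cadmium. For chromosome 18 the values were 1.55% and 1.4%, and for all chromosomes 4.44% and 3.1%. The 3 clade B serpins at the other human locus, chromosome 6p25, had larger shares of their windows covered. SERPINB1, SERPINB6 and SERPINB9 all had start-site peaks in both lists, with 21.4 to 42.7% of their windows covered in control and 13.7 to 22.2% in cadmium, all 3 lower in cadmium.

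**Figure D5:**
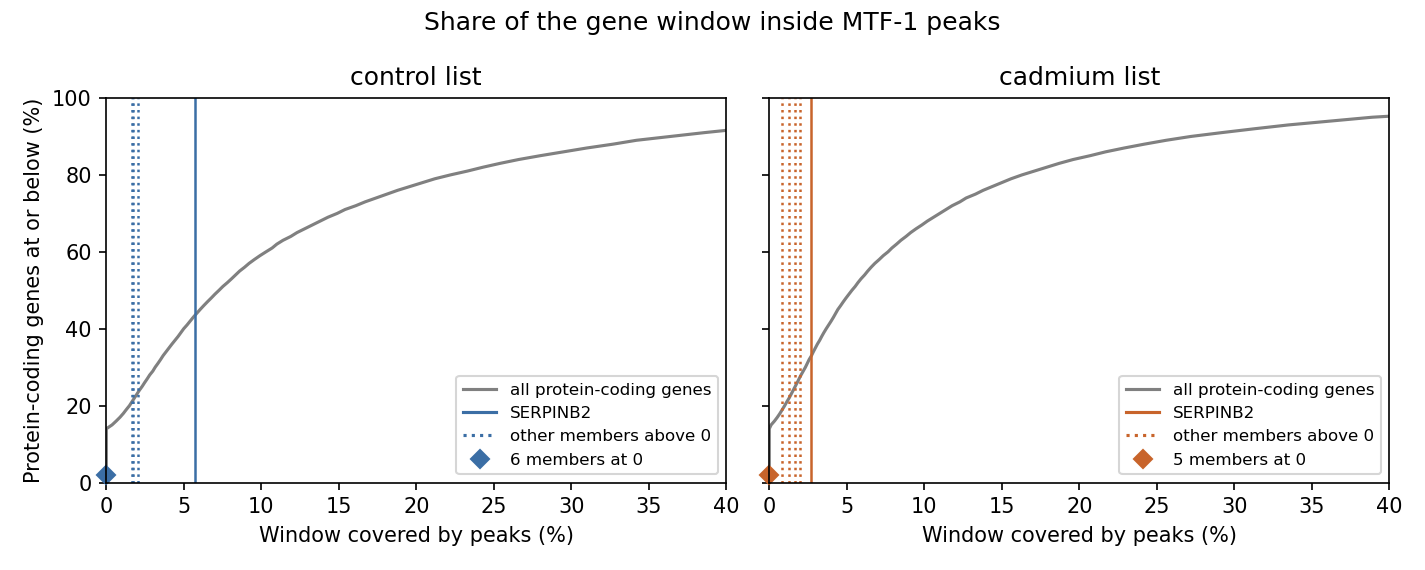
Cumulative share of protein-coding genes (y axis, %) against the percent of the gene with 10 kb on either side that lies inside MTF-1 peaks (x axis, cut at 40%), for the control list (left) and the cadmium list (right). Vertical lines are SERPINB2 (solid) and the other members above 0 (dotted), and the diamond stands for the members at 0, which are 6 in control and 5 in cadmium; SERPINB2 is at 5.74% and 2.68%, the highest of the members in each list.

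Searched over the whole of each site, the AP-1 string was in 5 of 9 member sites, the metal response element core in 2 and a forkhead string in 1, and none of these counts was tested against other sites. Of the sites with the AP-1 string, 4 were conserved, 1 gained and 0 lost. Over all sites the AP-1 shares were 54.0% of conserved, 43.1% of gained and 41.2% of lost sites. These shares, and those of the other strings below, were not matched for width, and a longer site has more room for a match. The median width was 1799 bp for all conserved, 599 bp for all gained and 999 bp for all lost sites. Conserved member sites were 399 to 1799 bp wide. Both conserved SERPINB2 sites held 1 AP-1 match. In the narrower site it was TGAGTCA at 63879874 to 63879880, within the 199 bp that remained in the cadmium list, and in the wider site it was TGACTCA at 63882756 to 63882762, also in the part shared by both lists. The sequence covered by the control list alone at these sites had no match. The second gained peak of SERPINB11 held TGACTCA at 63708941 to 63708947, near its edge, while the first had none and carried the single forkhead match over the member sites, at 63683203 to 63683209. Of all sites, 64.4% of conserved, 31.3% of gained and 60.2% of lost held a forkhead string. The metal response element core lay in the lost SERPINB2 peak at 63869523 to 63869529, outside the 300 bp shown, and in the SERPINB8 start site at 63970448 to 63970454. The shares over all sites were 71.1% of conserved, 39.4% of gained and 48.4% of lost. TGCACACG was in 0 of 9 sites, and over all sites in 4.66% of conserved, 1.85% of gained and 2.25% of lost. In the 300 bp around the centre, as in the sequences shown, 3 of 9 member sites had the AP-1 string. The shares were 18.1% of all control peaks and 22.1% of all cadmium peaks. By class they were 16.8% of conserved, 26.8% of gained and 18.5% of lost sites.

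Promoters of 8 of the 10 members were in the RefSeq table of 300 bp around each start (GRCh38.p14; SERPINB10 and SERPINB11 were not). The SERPINB2 promoter at chr18:63887455-63887754 was covered by neither list and held none of the strings. The SERPINB8 promoter was inside peaks of both lists over all 300 bp and held 1 AP-1 string. SERPINB7, at its starts 63775418 and 63777781, and SERPINB13 also had promoters with the AP-1 string, which 4.95% of all 35116 RefSeq promoters hold. No peak of either list covered those promoters. The metal response element core was in promoters of SERPINB7 and SERPINB13 (29.6% of all RefSeq promoters) and a forkhead string in promoters of SERPINB7 and SERPINB12 (13.6%), again without a peak. These shares are per promoter, while SERPINB7 and SERPINB12 each had more than 1 promoter, so a count of members is not directly comparable with them.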

How the data were processed

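MTF-1 CUT&RUN peaks from control and cadmium-resistant MDA-MB-231 cells (2 libraries each) were used as deposited. Per the labels and the methods, the authors removed adaptor sequence, mapped reads to hg38 (Bowtie2), pooled both libraries of a condition (SAMtools 1.8) and called broad peaks with Epic2 at default settings. The submitters' processing notes name SICER 0.0.50. An IgG or input library for the calling is not given in the sources used here. The lists hold positions in bp; their last column is constant and was not used.

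The members and lists were chosen with earlier results of these data known. Lost, gained and conserved sites were assigned by 1 shared base, over each GENCODE 44 gene and 10 kb on either side. A start-site peak came within 1 kb of any annotated start. Other overlaps, windows, peak widths and start distances were tried as alternatives. All 10 members were named, with the 6p25 serpins, plasminogen activation genes and flanking genes for comparison. 1 gene of the plasminogen list is not reported here. Sequences were read with pysam 0.24.0, similar stretches were searched with BLAST 2.17.0, and the class and motif steps were tested on simulated data. All 129429 deposited peaks fell on whole 200 bp bins.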

Additional observations from a re-analysis of the deposited data

How the results depend on the processing

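Replicates were merged before peak calling, so no library could be left out, and how far narrow peaks depend on the caller's threshold was not tested. No paired analysis was possible because each condition has 1 merged list. Of 43 alternative counts, 24 stayed within 1.5 times the reported value. Requiring 50% coverage by the other list made 3 lost peaks, since the narrower SERPINB2 site joined them. Lost peaks over members were 2, and 1 with the gene body alone, with peaks of at least 600 bp or with RefSeq bounds (a choice made after seeing the data), and 0 with peaks of at least 1000 bp; members with a lost peak were 1, 1, 1 and 0. Gained peaks were 2, and 0 at 600 bp, 0 at 1000 bp and 1 with RefSeq bounds. Members with a gained peak were 1, then 0 at 600 bp, 0 at 1000 bp and 4 with 50 kb on either side. Conserved sites were 5, then 3 with the gene body alone and 2 at 1000 bp. Members with a start-site peak in control were 2, then 1 at 600 bp and 1 at 1000 bp, where SERPINB5 dropped out. In cadmium they were 1. Within 3 kb of a start they were 3 in control, which adds SERPINB2 by its lost peak before the distal start, and 2 in cadmium, which adds SERPINB11. The width limits remove narrow peaks by construction.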

Other observations

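Of 4 genes of plasminogen activation, the pathway SERPINB2 restrains, 3 had a larger share of their window inside MTF-1 peaks than SERPINB2 in both lists. PLAU (urokinase, the protease that SERPINB2 inhibits) had 53.7% of its window in control peaks and 30.4% in cadmium peaks. PLAUR, the urokinase receptor, had 25% and 20.9%, and PLAT, the tissue-type activator, had 26.4% and 21.9%. These 3 genes had a start-site peak in both lists. PLG, which encodes plasminogen and is a liver gene, had no peak in either list, and the nearest was 181045 bp from its start in control and 180245 bp in cadmium. PLAT had 1 lost peak, and none of the 4 genes had a gained peak. The difference between lists was not tested for any of these genes.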
